A study of Mus musculus with 18 samples.

Results

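Dio1 encodes the type 1 iodothyronine deiodinase, and its transcript was followed here in the liver of female mice aged 6 to 8 weeks, hybridised to 18 Affymetrix MG-430 PM arrays. The gene was chosen by its higher measured RMA value in transgenic than in wild-type liver, so that comparison is given as a description with no test. It is 1 of 17097 genes measured, and the platform annotation gave it 1 probe set of the 28898 that carried a single gene symbol. In the transgenic model, 5 C57BL/6 wild-type samples were set against 5 from C57BL/6 mice carrying NPC1L1, a cholesterol transporter, as a transgene in the liver. In the antisense model, 4 samples from C57BL/6N mice given an antisense oligonucleotide (ASO) that knocks down ACAT2, a cholesterol-esterifying enzyme, were set against 4 given a non-targeting ASO. Both interventions stimulate transintestinal cholesterol excretion, the first chronically and the second acutely, and the study sought regulators of reverse cholesterol transport. The promoter and species of the transgene, the founder line, and the dose and duration of the ASO, were not given in the sources used here.

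Type 1 deiodinase is a selenoprotein, an enzyme with selenocysteine in its active site, that removes iodine from thyroid hormones. It converts thyroxine to the active hormone triiodothyronine, and it also clears inactive iodothyronines. Liver, kidney and thyroid are its main sites. Hepatic Dio1 is a long-known target of triiodothyronine acting through the thyroid hormone receptor beta, and its level is known to be low in fasting and in systemic inflammation.

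The sequence around the start of Dio1 is shown because Dio1 is a known target of a nuclear receptor, whose binding letters can be looked for in it. It comes from RefSeq (GRCm38.p6, chr4:107307119-107307418, minus strand) and runs from 250 bases before to 50 bases after the start, 5′ to 3′ on the strand of the gene, with 49.7% G and C. Capitals mark the 2 matches to AGGNCA, the half-site bound by nuclear receptors with 1 base, written N, left open.

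Dio1 promoter: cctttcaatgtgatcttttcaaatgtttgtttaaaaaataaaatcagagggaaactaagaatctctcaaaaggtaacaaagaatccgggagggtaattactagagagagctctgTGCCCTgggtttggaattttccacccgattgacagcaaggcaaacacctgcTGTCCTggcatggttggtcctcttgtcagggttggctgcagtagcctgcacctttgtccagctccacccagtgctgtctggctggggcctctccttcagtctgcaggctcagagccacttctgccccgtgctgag

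Both matches lay on the reverse strand, at -136 to -131 and at -85 to -80 from the start, and 57.2% of 32851 promoters of the same length held at least 1 match on either strand. The exact half-site AGGTCA, which is contained in AGGNCA, was not found in these letters and was present in 16.3% of promoters. TATAAA (13.6% of promoters), GGGCGG (35.7%) and CCAAT (37.4%) were not found either. All motifs were searched on both strands, and a match is a description of the letters only.

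Dio1 was higher in NPC1L1 transgenic than in wild-type liver. Its RMA log2 values, in which 1 unit is a doubling of signal, were 8.68, 8.22, 8.57, 8.14 and 9.03 in wild-type samples 1 to 5. They were 9.58, 9.73, 10.54, 9.87 and 9.64 in transgenic samples 1 to 5. The groups did not overlap, and the lowest transgenic sample lay 0.55 above the highest wild-type sample. Without overlap, 1.42% of all genes were higher in transgenic liver, and nothing is read from Dio1 being among them, since this contrast chose the gene. The means were 9.87 ± 0.39 and 8.53 ± 0.36 (SD, n = 5), a log2 difference of 1.34, or 2.54-fold. Leaving out single samples moved the difference between 1.18, without transgenic 3, and 1.47, without wild type 5. Of the 17097 genes, 5 had a larger positive difference.

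The sample with the highest Dio1 in each of these groups, transgenic 3 and wild type 5, also had the highest excess of 3′ over 5′ signal for Actb in its group (log2, from control probe sets), a sign of RNA integrity. That difference was 1.26 in transgenic 3, against 0.89 to 1.16 in the other transgenic samples. It was 1.02 in wild type 5, against 0.83 to 0.97 in the other wild-type samples. In the ASO model this was not so. The highest values for Actb in their groups, 1.18 in ACAT2 ASO 2 and 1.09 in control ASO 2, belonged to the samples with the lowest Dio1. Control ASO 3, with the highest Dio1 of its group, was close behind for Actb at 1.08, and ACAT2 ASO 4, highest in its own, was at 1.02. The same difference for Gapdh was also highest in transgenic 3 (0.28) and ACAT2 ASO 2 (0.34). In the remaining groups it was highest in wild type 3 (0.23) and control ASO 4 (0.21), which held neither the highest nor the lowest Dio1. Both were near ties. Wild type 5 read 0.22 for Gapdh, and Dio1 was 10.38 in control ASO 4 against 10.39 in control ASO 3. The part of RNA integrity in the level of Dio1 was not tested.

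After ACAT2 ASO, Dio1 did not pass the test. ACAT2 ASO samples 1 to 4 gave 9.88, 9.51, 9.59 and 10.12, and control ASO samples 1 to 4 gave 9.97, 9.61, 10.39 and 10.38. The groups overlapped over most of their ranges, with the highest values in control ASO 3 and 4. The means were 9.78 ± 0.28 and 10.09 ± 0.37 (SD, n = 4), a log2 difference of -0.31 ± 0.23 (SE, limma adjusted p = 0.622). The exact two-sided permutation test over the 70 splits of these 8 arrays gave p = 0.257, where the smallest possible p is 0.0286. The 95% interval of the difference ran from -0.80 to 0.17, that is from 0.576-fold to 1.13-fold, so that a lower level of Dio1 after the ASO was within the error of this design. In this comparison limma called 0.597% of genes at an adjusted p under 0.05. Whether the effects of the 2 interventions on Dio1 differ was not tested, because the transgenic values chose the gene.

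**Figure D1:**
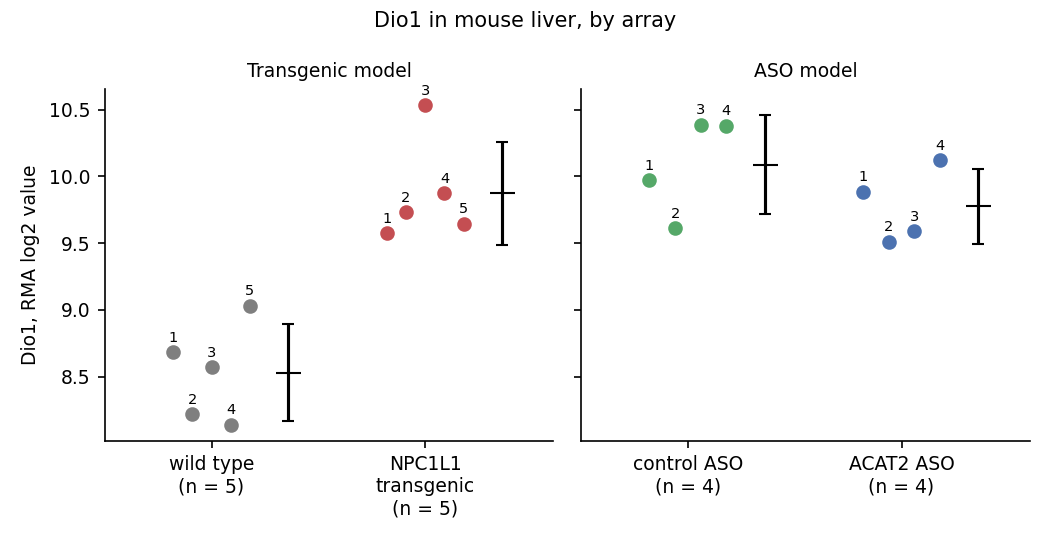
RMA log2 values of Dio1 in each array (points, numbered by sample), with the mean and SD of each group beside them, for the transgenic model (left) and the ASO model (right). The 5 transgenic samples sit between 9.58 and 10.54, above all 5 wild-type samples, while the ACAT2 ASO and control ASO samples overlap. Levels are compared only within a model.

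Within groups Dio1 varied more than most genes. Its SD was 0.36 in wild-type, 0.39 in transgenic, 0.37 in control ASO and 0.28 in ACAT2 ASO liver, against a median SD over all genes between 0.091 and 0.11. Between 93.4% and 98.2% of genes had a smaller SD than Dio1 in the same group. These shares count all genes, those of low mean included, and are not matched for level. In bulk liver RNA, fewer cells of a type and less RNA per cell cannot be told apart.

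None of the genes beside Dio1 on chromosome 4 was called in either comparison. In chromosome order the measured genes were Tmem59, Lrrc42 and Hspb11 on one side and Yipf1, Ndc1 and Glis1 on the other. In transgenic liver they differed by -0.13, -0.07, -0.04, -0.02, 0.17 and -0.09 on the log2 scale, and limma called none of the 6 (adjusted p between 0.327 and 0.949), against 0.228% of all genes. Ndc1, a nucleoporin gene, had the largest of these differences, 0.17 ± 0.07 (SE, limma adjusted p = 0.327). After ACAT2 ASO the 6 genes differed by between -0.19 (Yipf1, a Golgi membrane protein gene, limma adjusted p = 0.182) and 0.16 (Tmem59, limma adjusted p = 0.362), and none was called. The probe sets of Hspb11 and Tmem59 lay low on the scale, with group means between 2.87 and 4.15, which limits what they can show.

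**Figure D2:**
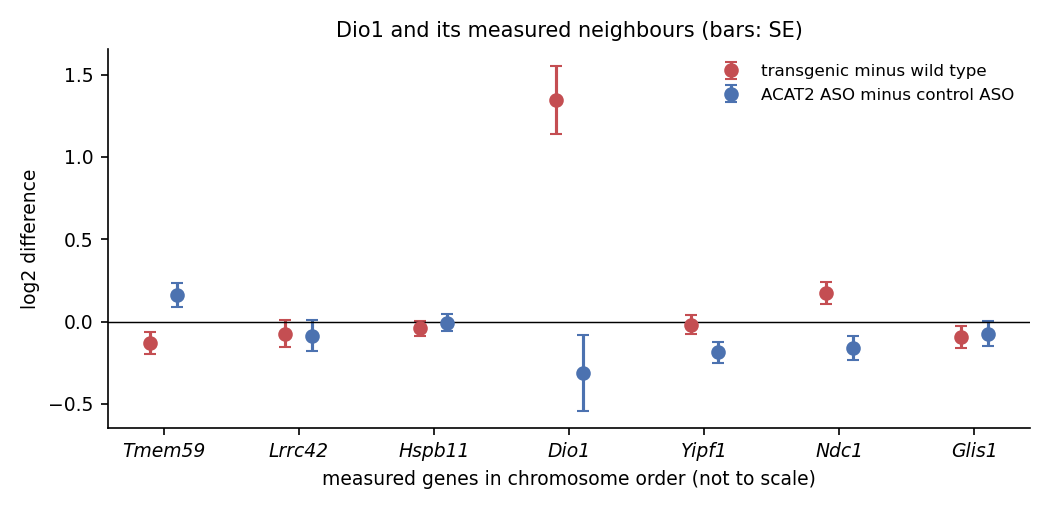
Log2 differences (points) with limma's standard errors (bars) for Dio1 and the 3 measured genes on each side of it, in chromosome order. Dio1 stands at 1.34 in the transgenic comparison (red), which chose it, and its neighbours lie between -0.13 and 0.17. In the ASO comparison (blue) the neighbours lie between -0.19 and 0.16.

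Genes that produce, carry, sense or answer to thyroid hormone were examined as lists, together with the selenoprotein machinery and with the fasting and inflammatory responses. Of 114 measured genes in 9 lists, limma called 0 in transgenic liver, with 5 at an unadjusted p under 0.05 (4.39%, against 10.9% of all genes). After ACAT2 ASO limma called 1 higher (0.877%, against 0.597% of all genes), with 19 at an unadjusted p under 0.05 (16.7%, against 13.3%). The median difference over these genes was 0.01 in transgenic liver and 0.02 after ACAT2 ASO, and over all genes it was 0.0058 and -0.00056.

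Neither thyroid hormone receptor gene was called. Thra, which encodes receptor alpha, differed by -0.04 in transgenic liver and 0.0026 after ACAT2 ASO (limma adjusted p = 0.871 and 0.994). Thrb, the receptor beta gene, differed by 0.01 and -0.03 (limma adjusted p = 0.979 and 0.899). Group means ran from 5.76 to 6.13 for Thra and from 5.15 to 5.58 for Thrb, which had 1 probe set. These levels were not far above the array medians (4.38 to 4.65), which limits what they can show. The receptors were named for their role, outside the rule for naming genes. Of the 13 measured receptor, retinoid partner and coregulator genes, 5 were above 0 in transgenic liver, with a median of -0.03. Ncoa1, a coactivator of nuclear receptors, read 7.45, 7.38, 7.58, 7.34 and 7.45 in wild-type samples 1 to 5 and 7.60, 7.60, 7.76, 7.65 and 7.48 in transgenic samples 1 to 5. Its transgenic values lay mostly above the wild-type range, with overlap at transgenic 5, and the difference of 0.18 ± 0.06 (SE) was not called (limma adjusted p = 0.251). A second Ncoa1 probe set differed by 0.18. Med1, a Mediator subunit that binds the receptors, differed by -0.16 (limma adjusted p = 0.355).

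The called gene was Ncoa2, a coactivator related to Ncoa1, which rose after ACAT2 ASO, where 0.181% of all genes were called higher. It read 8.62, 8.62, 8.66 and 8.77 in ACAT2 ASO samples 1 to 4 and 8.26, 8.32, 8.36 and 8.42 in control ASO samples 1 to 4. The groups did not overlap, and 4.39% of all genes were likewise higher without overlap. The log2 change was 0.33 ± 0.06 (SE, limma adjusted p = 0.0267). In transgenic liver Ncoa2 differed by -0.05 (limma adjusted p = 0.831), and the transgenic effect minus the ASO effect was -0.38 (limma adjusted p = 0.0452, a test passed by 1.07% of all genes). Of the 8 fits that each left out 1 array of the ASO model, 2 kept the call, without ACAT2 ASO 2 (limma adjusted p = 0.0263) and without control ASO 4 (0.0306). In the other 6 the adjusted p ran from 0.0529 (without ACAT2 ASO 1) to 0.0969 (without control ASO 1). It also ended with the replicate number as a block (limma adjusted p = 0.055), when only these 8 arrays were fitted (0.0824), and when wild type 2, ACAT2 ASO 1 and control ASO 4, the arrays least like the others, were dropped (0.0722). Other Ncoa2 probe sets, with means below 4.61, differed by 0.17, 0.15 and -0.08. Tbl1x, a subunit of the corepressor complex, differed by 0.31 after ACAT2 ASO (limma adjusted p = 0.0974), and its other probe sets by 0.02 and 0.20.

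None of the 11 measured hormone transporter genes was called in either comparison. Their median differences were -0.0049 in transgenic liver and 0.11 after ACAT2 ASO. The widest were those of Slco1a1, an organic anion carrier singled out after its values were seen, at -0.90 ± 0.71 in transgenic liver and 0.89 ± 0.79 after ACAT2 ASO (SE, limma adjusted p = 0.71 and 0.697). Its values spread from 7.17 to 10.48 among transgenic samples alone. A second Slco1a1 probe set, with a mean of 7.25, differed by -1.29 in transgenic liver and 1.00 after ACAT2 ASO. Slc3a2, the heavy chain partner of amino acid and iodothyronine carriers, differed by 0.21 in transgenic liver (limma adjusted p = 0.474). Slc10a1, the bile acid importer that also carries iodothyronines, differed by 0.13 under the transgene and -0.15 after ACAT2 ASO (limma adjusted p = 0.563 and 0.46). After ACAT2 ASO the organic anion transporter genes Slco1a6 and Slco2b1 differed by 0.13 and -0.23 (limma adjusted p = 0.22 and 0.363).

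The other enzymes and carriers of thyroid hormone gave 0 calls among 11 measured genes in each comparison. Dio2, the deiodinase that activates thyroxine in brain and brown fat, lay near or below the array medians (4.38 to 4.65), between 4.11 and 4.61 over all 18 arrays. It differed by -0.14 in transgenic liver and -0.04 after ACAT2 ASO (limma adjusted p = 0.606 and 0.914), and other Dio2 probe sets differed by -0.04 and -0.03 and by 0.04 and 0.23. With every probe set tested by itself, the probe set at 0.23, whose mean was 3.91, was called (limma adjusted p = 0.0388). Dio3, the inactivating deiodinase, was not analysed here. Sult1b1, a sulfotransferase that acts on iodothyronines, differed by -0.32 under the transgene and -0.29 after ACAT2 ASO (limma adjusted p = 0.544 and 0.581). Sult1c2, of the same family, differed by -0.83 after ACAT2 ASO (limma adjusted p = 0.15), and the glucuronosyltransferase gene Ugt1a9 by 0.11 (0.457).

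Genes that triiodothyronine is known to raise in liver gave 0 calls in each comparison. In transgenic liver 11 of 16 measured genes (68.8%) were above 0, against 52.6% of all genes, with a range from -0.16 to 0.89, and 2 (12.5%) had an unadjusted p under 0.05, against 10.9% of all genes. Their median was 0.13, and over the alternatives it ran from 0.06, with every probe set, to 0.21, without the genes of low mean. After ACAT2 ASO 9 of 16 were above 0, with a median of 0.06. G6pc, glucose-6-phosphatase of glucose release, and Thrsp, a lipogenic gene long used as a readout of the hormone, were named after their values were seen. They differed by 0.89 ± 0.51 and 0.31 ± 0.34 in transgenic liver (SE, limma adjusted p = 0.562 and 0.817). Cyp7a1, the rate-limiting enzyme of bile acid synthesis, read 9.50, 9.56, 9.49, 9.98 and 10.17 in wild-type samples 1 to 5 and 9.93, 10.16, 10.40, 10.37 and 10.73 in transgenic samples 1 to 5. The ranges met between 9.93 and 10.17, and the difference was 0.58 ± 0.20 (SE, limma adjusted p = 0.274). Its second probe set differed by 0.66. Me1, malic enzyme, which supplies reducing power for lipid synthesis, read 11.71, 10.75, 10.93, 10.99 and 10.54 in wild-type samples 1 to 5 and 11.18, 11.55, 11.46, 11.73 and 11.14 in transgenic samples 1 to 5. Only wild type 1 reached the transgenic range, and the difference was 0.43 ± 0.19 (SE, limma adjusted p = 0.409), with 0.31 at the second probe set. After ACAT2 ASO the largest leads were Cpt1a, which admits fatty acids to mitochondria, at -0.31 (limma adjusted p = 0.101), and Abcg8, a sterol exporter subunit, at 0.45 (0.311).

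No other listed selenoprotein was called in either comparison with the main settings. All 21 listed genes were measured, with differences between -0.19 and 0.12 in transgenic liver and a median of 0.01. The lowest adjusted p there was 0.503, for Selenow (-0.19), and Selenof, of the endoplasmic reticulum, differed by 0.11 (limma adjusted p = 0.51). After ACAT2 ASO, 6 of 21 (28.6%) had an unadjusted p under 0.05, against 13.3% of all genes, and limma called 0. Gpx4, which reduces lipid hydroperoxides, differed by -0.20 and Selenoh by -0.45 (limma adjusted p = 0.0961 and 0.134). With array weights Gpx4 was called. Of the 9 measured genes that make, insert or recycle selenocysteine, limma called 0 in each comparison, with differences between -0.09 and 0.05 in transgenic liver. Scly, selenocysteine lyase, and Pstk, a kinase of selenocysteine synthesis, differed there by -0.09 and 0.05 (limma adjusted p = 0.685 and 0.861). Eefsec, the selenocysteine elongation factor, and Secisbp2l differed by -0.25 and 0.24 after ACAT2 ASO (limma adjusted p = 0.193 and 0.227).

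Transcription factors that act on hepatocyte genes, 9 measured, gave 0 calls. Foxa2 differed by -0.39 in transgenic liver (limma adjusted p = 0.494). Nr1i3, the constitutive androstane receptor, differed by 0.15 in transgenic liver and -0.57 after ACAT2 ASO (limma adjusted p = 0.779 and 0.111), and Nr1h3, an oxysterol receptor, by -0.03 and -0.14 (0.937 and 0.514). Nr1i3 was called lower after ACAT2 ASO in 3 alternatives, namely without control ASO 4 (-0.74, limma adjusted p = 0.0169), with array weights (-0.63, 0.0227) and without wild type 2, ACAT2 ASO 1 and control ASO 4 together (-0.68, 0.0338). In the last of these it was the single list member called.

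Neither the fasting nor the acute phase list held a call. In transgenic liver 10 of 11 fasting genes were above 0, with a median of 0.10 that turned to -0.03 without wild type 2. Angptl4, a lipoprotein lipase inhibitor, differed by 0.49 and Asns, asparagine synthetase, by 0.27 (limma adjusted p = 0.521 and 0.503). After ACAT2 ASO, 7 of 11 were above 0, with Sesn2 at -0.22 and Cyp4a10 at -0.27 (limma adjusted p = 0.462 and 0.717). The 13 acute phase genes had a median of -0.0052 in transgenic liver, and 0.10 without wild type 2. The serum amyloid gene Saa1 and the orosomucoid gene Orm2 differed by 0.80 ± 0.56 and 1.08 ± 0.73 (SE, limma adjusted p = 0.66 and 0.646), with a wide spread within groups, and Nfkbia and the fibrinogen gene Fgb by -0.21 and -0.05 (limma adjusted p = 0.625 and 0.679).

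The acute phase genes were uneven among the samples of a group, and samples with high values were both low and high for Dio1. Saa1 was highest in its group in wild type 2 (12.01), transgenic 5 (11.73), ACAT2 ASO 1 (12.24) and control ASO 4 (12.54), and Orm2 was highest in the same 4 samples, at 10.67, 10.83, 10.90 and 10.94. Dio1 deviated from its group mean in these samples by -0.31, -0.23, 0.11 and 0.29, below the mean in the first pair and above it in the second. Over the 18 arrays the deviations of Dio1 had r = -0.00026 with those of Saa1 and 0.05 with those of Orm2. Wild type 2, ACAT2 ASO 1 and control ASO 4 were also the arrays least like the others of their model (mean correlation 0.989, 0.990 and 0.989). Without these 3 arrays the Dio1 difference was 1.27 in transgenic liver, and after ACAT2 ASO it was -0.25 (limma adjusted p = 0.801).

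**Figure D3:**
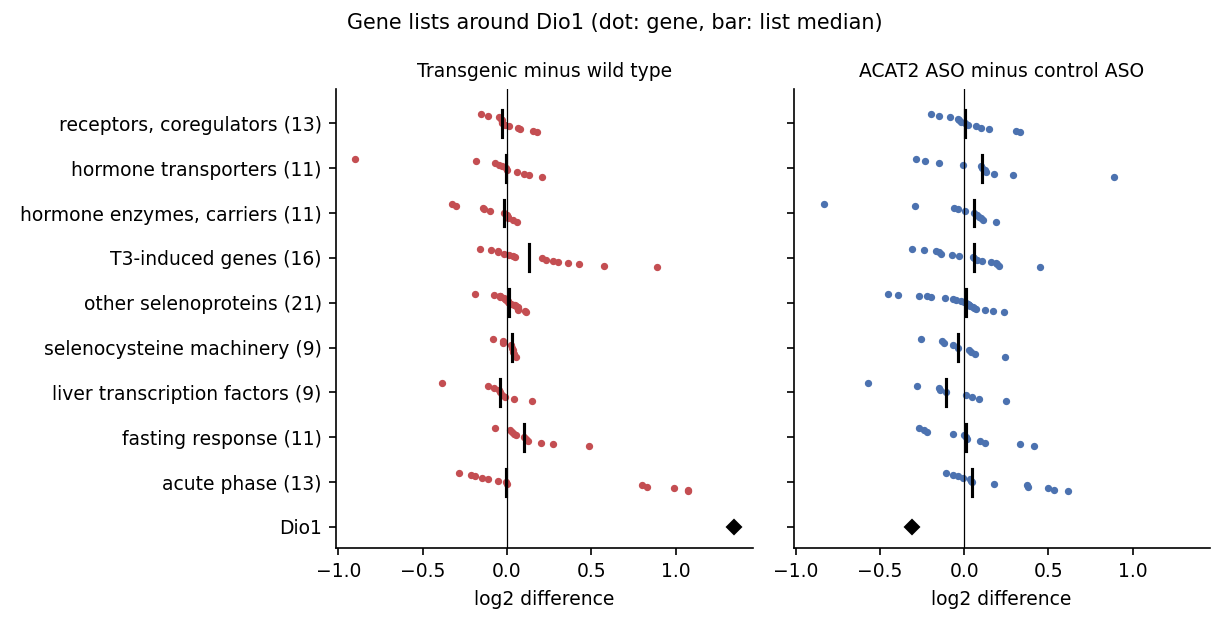
Log2 differences of the members of 9 gene lists (dots, number measured in parentheses) with the list median (black bar), and of Dio1 (diamond), in transgenic minus wild-type liver (left) and ACAT2 ASO minus control ASO (right). The list medians lie between -0.04 and 0.13 on the left and between -0.11 and 0.11 on the right. Dio1 stands at 1.34 on the left, in the contrast that chose it. On the right it stands at -0.31, where single list members run from -0.83 to 0.89.

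Markers of hepatocytes were high on all arrays, and markers of kidney tubule and of thyroid follicle, the other main Dio1 tissues, lay near or below the array medians (4.38 to 4.65), with no group mean above 5.03. Group means of the 10 hepatocyte markers ran from 10.65 to 13.58. The 5 measured kidney markers had group means no higher than 4.97, and their summed level ran from 19.86 to 20.27 in wild-type and from 19.56 to 20.12 in transgenic liver. The 4 thyroid markers summed to between 17.77 and 18.56 in wild-type and between 17.78 and 18.33 in transgenic liver. Of 52 measured markers of 8 cell types, limma called 0 in transgenic liver (0.228% of all genes), with 5 (9.62%) at an unadjusted p under 0.05 (10.9% of all genes). After ACAT2 ASO it called 1 (1.92%, against 0.597% of all genes), the kidney androgen-regulated gene Kap, which rose by 0.36 ± 0.05 (SE, limma adjusted p = 0.00243). Kap read 4.90, 5.11, 4.96 and 4.89 in ACAT2 ASO samples 1 to 4 and 4.54, 4.63, 4.67 and 4.60 in control ASO samples 1 to 4, and a second probe set differed by 0.05. The groups did not overlap, as for 4.39% of all genes in this direction, and 0.181% of all genes were called higher. In the fit of these 8 arrays alone the call of Kap ended (limma adjusted p = 0.0844). The summed kidney markers ran from 19.73 to 19.93 after ACAT2 ASO and from 19.32 to 19.54 after control ASO. Their mean sums were 19.82 and 19.45, a difference made mostly by Kap. Of the 5 kidney markers 3 were above 0 in this comparison, with a median of 0.02. The part of the kidney markers in the Dio1 values was not tested. The 8 Kupffer cell markers were all above 0 after ACAT2 ASO, with a median of 0.45 and none called, and their summed level ran from 60.57 to 74.93 there and from 60.65 to 71.47 after control ASO.

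To find genes that follow Dio1 from array to array, the group mean was subtracted from each value, which removes the transgenic difference, and the remaining deviations were correlated with those of Dio1 over the 18 arrays. The 10257 genes ranked, those above the lowest 40% by mean, had Pearson r between -0.79 and 0.84, with 90% of them, from the 5th to the 95th percentile, between -0.41 and 0.43. These r describe the arrays and carry no p, since the extremes of so many genes are large by selection, and arrays share their hybridisation and normalization across genes. The deviation of Dio1 was highest in transgenic 3 (0.66) and wild type 5 (0.50), and lowest in control ASO 2 (-0.48) and wild type 4 (-0.39).

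The gene most like Dio1 was Pde10a, a cyclic nucleotide phosphodiesterase gene, with r = 0.84 and Spearman rho = 0.88 over 18 arrays. Its r was 0.90 over the 10 arrays of the transgenic model, 0.73 over the 8 of the ASO model and 0.78 without the 2 arrays farthest from the median of Dio1. Next came Spen, a transcriptional corepressor gene (r = 0.78), Tmed5, of vesicle transport (0.77), Il13ra2, a decoy cytokine receptor gene (0.77), Senp3, a SUMO protease gene (0.76), Upf1, of nonsense-mediated decay (0.76), Gulp1, an engulfment adaptor gene (0.75), Dxo, a decapping enzyme gene (0.75), Ncoa1 (0.74) and Fam78b (0.74). All 10 had a positive r in each model, from 0.68 to 0.95 in the transgenic and from 0.28 (Gulp1) to 0.85 in the ASO model. None of the 10 was called in either comparison, against 0.228% of all genes in transgenic liver and 0.597% after ACAT2 ASO. Nothing is read from this count. The most opposite genes were Ddb2, of DNA damage recognition (r = -0.79), Pxdn, a peroxidasin gene (-0.77), Kifbp (-0.77), Zfp398 (-0.76) and the protamine gene Prm1 (-0.72), all negative in each model. Both sets were picked over these same 18 arrays, so a shared sign in each model follows largely from the choice. Ranked in 1 model alone, 2 of the 10 most alike stayed among the 10 in the transgenic and 0 in the ASO model.

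**Figure D4:**
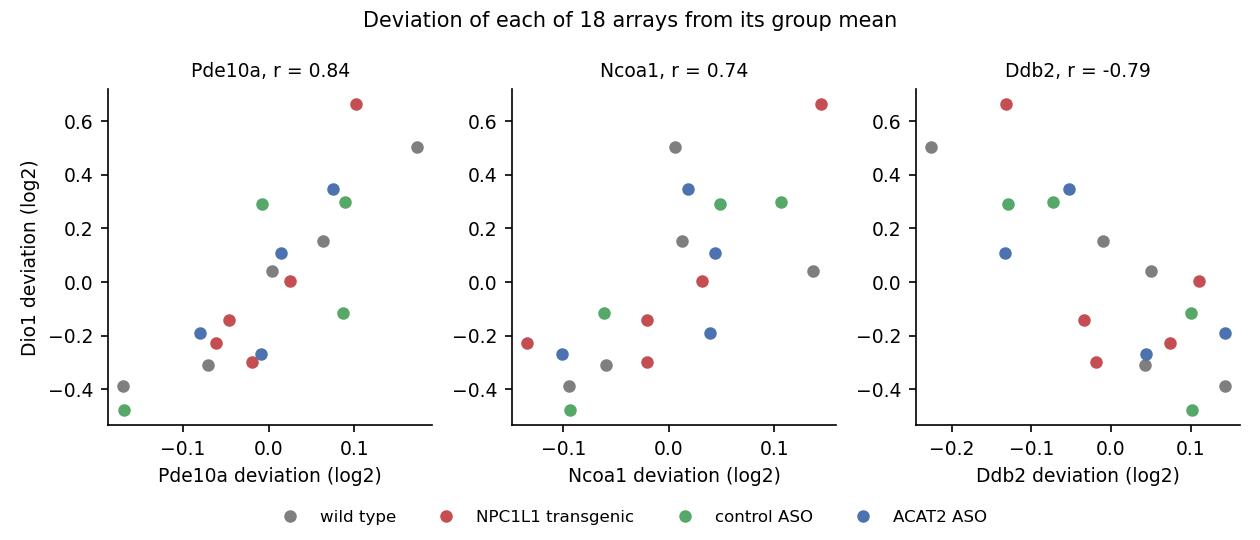
Deviation of Dio1 from its group mean (vertical axis, log2) against that of Pde10a, Ncoa1 and Ddb2 (horizontal axes, log2) in each of 18 arrays, coloured by group. The points climb for Pde10a and Ncoa1 (r = 0.84 and 0.74) and descend for Ddb2 (r = -0.79). The 3 genes were picked for these extremes or for their list, and their deviations are small beside those of Dio1.

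The probe sets used for the 10 most alike genes had means from 5.02 (Gulp1) to 9.94 (Tmed5), with Spen at 5.19 and Pde10a at 5.78. Those of the 5 most opposite genes ran from 5.07 (Zfp398) to 8.02 (Kifbp). The lower of these means were not far above the array medians (4.38 to 4.65), which limits what they can show. Other probe sets were available for 6 of the 10 most alike genes, 12 in all, and 6 of them had r above 0. The brightest were those of Tmed5, with means of 9.76 and 8.00 and r of 0.59 and 0.46, and 1 of Ncoa1, with a mean of 5.84 and r = 0.21. The other 9 had means between 2.99 and 4.41, near or below the array medians, and r between -0.48 and 0.27. For Pde10a all 4 others lay in that range, at r of -0.48, -0.31, -0.22 and 0.22. When single arrays were left out, Pde10a stayed among the 10 most alike in 18 of 18 fits, Tmed5 in 16, Spen in 15 and Ncoa1 in 5. As few as 2 of the 10 genes remained among the 10 most alike without control ASO 2.

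Of the 114 measured list genes, 7 (6.14%) had an absolute r of 0.5 or more, near the 5.25% over all genes and 4.86% over the genes ranked. All 7 were among the 81 genes of the 6 thyroid and selenium lists (8.64%). Of the 33 genes in the other 3 lists 0 did, and nothing is read from this split. Ncoa1 was the highest, at 0.74. Gpd2, mitochondrial glycerophosphate dehydrogenase and a triiodothyronine target, had r = 0.57, and Dio2 had the same value. On the opposite side stood Iyd, iodotyrosine deiodinase, which salvages iodide (-0.66), Scly (-0.66), Ttr, the plasma carrier transthyretin (-0.61), and Pstk (-0.51). These genes were picked after their values were seen. Yipf1, the neighbour of Dio1, had r = -0.53.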

How the data were processed

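Liver total RNA, extracted with Trizol, (250 ng per array) was labelled with a 3′-IVT kit, per the labels' protocols. The files hold log2 values per probe set, which the authors computed by RMA according to the submitters' processing notes. The RMA software was not given in the sources used here, and the size of the values set their scale as log2. Array medians lay between 4.61 and 4.65 (transgenic model) or between 4.38 and 4.40 (ASO model), so levels were compared only within a model.

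Of 45141 probe sets per array, 104 controls were left out. The probe set with the highest mean represented a gene. Differences were tested two-sided with limma 3.58.1 (R 4.3.3; lmFit, eBayes) with all 18 arrays in 1 model of group means, with Benjamini-Hochberg adjustment over 17097 genes and calls under 0.05. The procedure was tested on simulated data. Samples are numbered in the labels without a statement that they are separate animals, so p-values measure the spread between samples, which may be partly technical. The number of arrays limits the precision. No arrays were identical (0 pairs).

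Dio1, the lists and the tests were chosen with earlier results of these data known. Of 131 listed genes 114 were measured, and of 57 cell type markers 52. Named genes are called list members, up to 4 members per list and comparison with the smallest p, the 10 genes most like and the 5 most unlike Dio1, and 3 measured neighbours on each side. The text names up to 2 such members per list and comparison, and may give their values in both comparisons. Exceptions are marked where they are named. Gene names and neighbours come from the platform annotation and RefSeq (GRCm38.p6). Alternatives covered filters, centring, quantile normalization, probe set choice, the arrays in the fit, variance models, array weights, a replicate block, a stricter threshold and leaving out arrays. Figures were drawn with matplotlib 3.10.9.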

Additional observations from a re-analysis of the deposited data

Results flagged for a closer look

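Among 66 genes named here, each in 4 groups, 10 of 264 groups held a sample set apart from the rest of its group, where chance gives about 1 in 20 (13.2). None concerned Dio1. ACAT2 ASO 2 stood apart for Angptl4 (9.67, nearest sample 10.08), Upf1 (4.65, nearest 4.92) and Kifbp (7.91, nearest 7.69). ACAT2 ASO 1 stood apart for Sult1c2 (5.14, nearest 6.04) and Fgb (12.99, nearest 12.92), and ACAT2 ASO 4 for Gpd2 (8.49, nearest 8.09). In the transgenic model the samples were wild type 5 for Med1 (7.33, nearest 7.55), wild type 3 for the cholangiocyte marker Krt19 (4.95, nearest 4.66), transgenic 2 for Sult1b1 (8.67, nearest 8.41) and transgenic 3 for Angptl4 (8.75, nearest 9.62).

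The effects of the 2 interventions differed by limma's test of the difference, transgenic effect minus ASO effect, for Ncoa2 by -0.38 (limma adjusted p = 0.0452) and for Kap by -0.46 (limma adjusted p = 0.00389). For all genes, 1.07% passed this test.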

How the results depend on the processing

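The Dio1 difference in transgenic liver lay between 1.18 and 1.47 over the 20 alternatives run. That is no support for it, since this contrast chose the gene and its groups do not overlap. The difference after ACAT2 ASO stayed uncalled and negative in all 19. It ran from -0.47 without control ASO 2 to -0.21 without control ASO 3 (limma adjusted p between 0.464 and 0.801). List members called in transgenic liver numbered 0 in all 21. After ACAT2 ASO, against 1, they numbered 0 with probe sets averaged per gene and in a fit of the comparison's arrays alone. They were also 0 at an adjusted p under 0.01 and with the replicate block. They numbered 2 with every probe set tested and 0 to 2 without single arrays. With array weights they were 4, namely Gpx4, Ncoa2, Nr1i3 and Rxrb. Calls over all genes, 39 in transgenic liver and 102 after ACAT2 ASO, were 13 and 17 in fits of each comparison's arrays alone, 17 and 26 at an adjusted p under 0.01, 2 and 18 with the replicate block, and 465 after ACAT2 ASO with array weights. Without single arrays they ran from 20 (without wild type 3) to 58 (without wild type 5) and from 42 (without ACAT2 ASO 3) to 203 (without ACAT2 ASO 2). Dropping 3 arrays picked after seeing the data as least like the rest, namely control ASO 4, wild type 2 and ACAT2 ASO 1, left 46 calls after ACAT2 ASO. Samples share only a replicate number: same-numbered samples had correlations of deviations between -0.48 and 0.17 in the transgenic and between -0.48 and 0.47 in the ASO model, and 0 of 5 and 1 of 4 correlated best with their own number.

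Of the 10 genes most like Dio1, the number that remained among the 10 most alike was 2 in the deviations of the transgenic model and 0 in those of the ASO model, 0 in the raw values of each model, 3 without the 2 arrays farthest from the median, 2 without those 3 arrays, and between 2 and 9 without single arrays. The causes were not tested. All 288 alternative values of list medians moved by less than the spread between samples. Medians of the receptor, selenoprotein, fasting and acute phase lists in both comparisons, and of the transporters in transgenic liver, changed sign under at least 1 alternative. Dio1 has 1 probe set, so a second could not be tried. Low signal limits the probe sets near the lower end of the scale.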
